A study of Mus musculus with 2 samples.

Results

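The amino acid transporters listed as those of follicle cells comprised 10 genes, Slc38a1, Slc38a2, Slc38a3, Slc38a4, Slc7a1, Slc7a5, Slc7a11, Slc3a2, Slc1a5 and Slc6a6. They were taken from the array by gene symbol, with every probe set whose annotation names exactly 1 gene, which gave 22 probe sets of 45101 and 10 genes of 18193. The ulipristal sample came from ovaries of wild type CD-1 mice, 24 to 28 days old, given ulipristal acetate (also labelled CDB), a synthetic modulator of the progesterone receptor, and the vehicle sample from such mice given oil. Both groups first received 5 IU of pregnant mare serum gonadotropin, which grows follicles, and then 5 IU of human chorionic gonadotropin 48 h later, which triggers ovulation. Drug or oil followed 2 h after the trigger and ovaries were taken at 11 h. The injection from which the 11 h is counted and the number of mice behind each sample are not stated. RNA of whole ovaries was read on 1 Affymetrix mouse genome array per treatment, so there was no spread between animals or arrays, and no test, standard deviation or p-value is given. Differences are between these 2 samples.

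A growing or ovulating follicle takes up amino acids for protein and matrix synthesis, for glutathione and as nitrogen donors for hexosamines. The granulosa and cumulus cells that surround the oocyte also carry some amino acids that the oocyte transports poorly and pass them on through gap junctions. The transporters fall into families by substrate and mechanism. Sodium-coupled SLC38 proteins move small neutral amino acids and glutamine, SLC7 proteins move cationic or large neutral amino acids or cystine, and several SLC7 light chains work only when bound to the heavy chain encoded by Slc3a2. In mouse follicles, Slc38a3 is known as a cumulus cell transporter whose message depends on the oocyte.

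None of the listed transporters that were bright enough to be measured differed by 2-fold. Those farthest from equal signal by their brightest probe sets, Slc38a1 and Slc7a1, were lower after ulipristal. A gene was counted as measured where the mean log2 signal of a probe set reached the median over all probe sets, a signal of 30.8 in arbitrary units, and it was represented by its brightest measured probe set. By this filter 9 of the 10 genes and 16 of the 22 probe sets were measured, and Slc7a11 was not. Of the 9 measured genes, 0 reached 2-fold upwards and 0 reached it downwards on the ulipristal array, where 3.34% and 1.56% of all 11364 measured genes were so. At 1.5-fold, 0 were higher and 2 lower, where 12.3% and 4.58% of all measured genes were so. The 2 were Slc38a1 and Slc7a1, and the count was 0 with the median over the probe sets of each gene. The log2 ratio of ulipristal over vehicle was below 0 for 7 of the 9 genes, and for 40% of all measured genes. Their median log2 ratio was -0.23, against 0.09 for all measured genes. Ratios fell with signal on these arrays, so all measured genes are not of like brightness. The median was -0.06 in the decile of signal that holds Slc38a1, Slc7a1 and Slc7a5. It was -0.12 in the decile that holds Slc38a2, Slc3a2 and Slc6a6. After lowess centring of the ratio against signal, 6 of the 9 genes were below 0. Their median was then -0.15, against 0.04 for all measured genes.

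**Figure D1:**
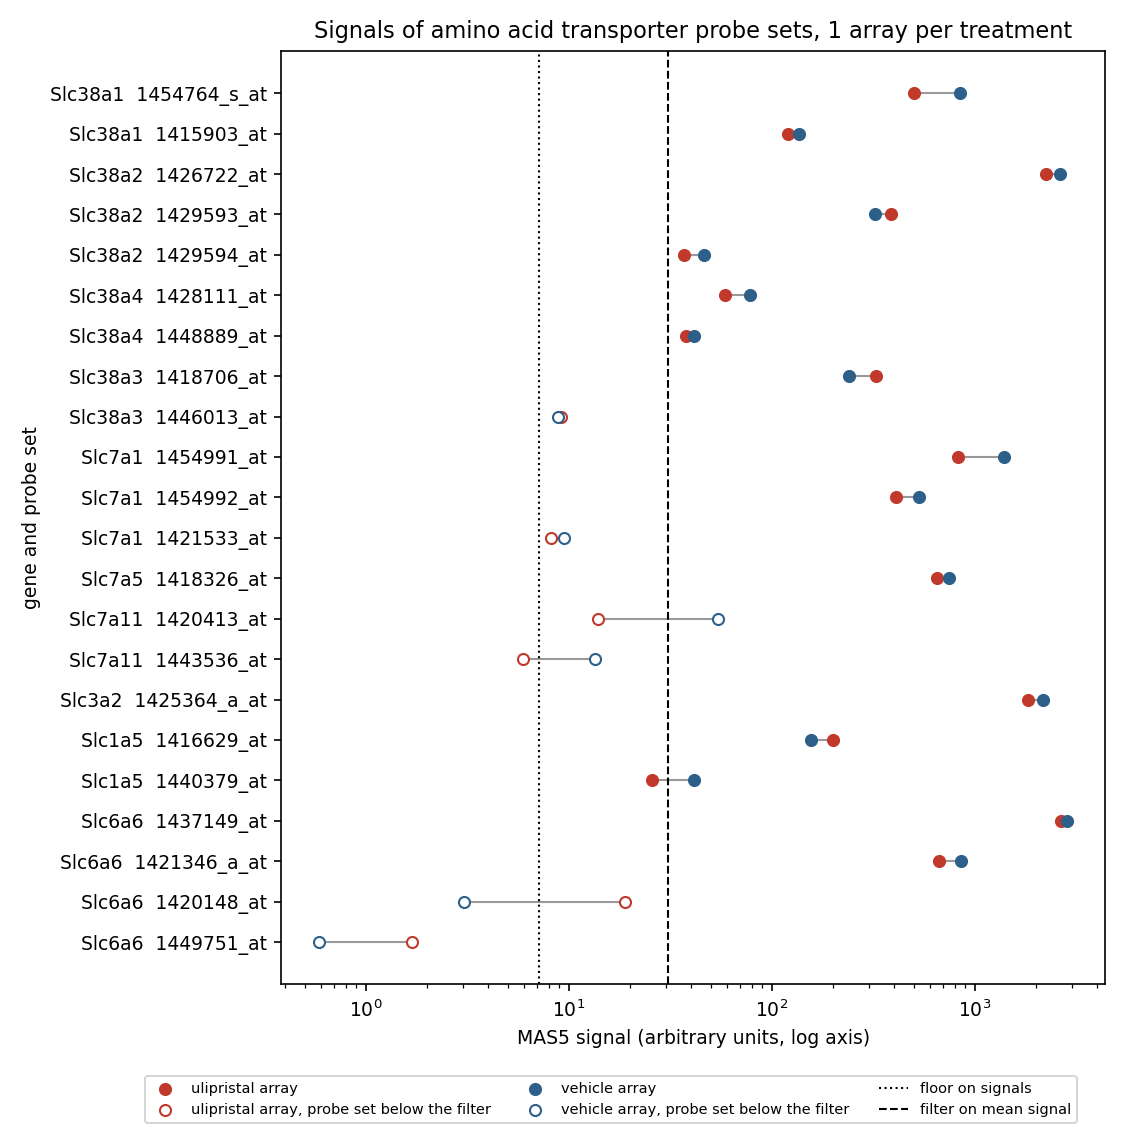
Signal of each probe set of the 10 transporters on the ulipristal array (red) and the vehicle array (blue), in arbitrary units on a log axis, with 1 array per treatment and the probe sets of a gene ordered by signal. Open points mark probe sets below the filter; the widest gap above the floor of 7.17 belongs to Slc7a11, and among measured probe sets the brightest Slc38a1 and Slc7a1 pairs and the dimmer Slc1a5 pair are the widest, with the ulipristal point on the left.

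Promoter sequence was printed for 2 of the genes with the lowest ratios, Slc7a11 and Slc7a1, because both are known to be controlled by amino acid supply. The RefSeq promoter table (GRCm38.p6) held entries for 5 of the 10 genes. The 250 bases before each start were searched on both strands for 4 motifs, the C/EBP-ATF response element core TGATGNAA, the antioxidant response element core TGACNNNGC, the cyclic AMP response element TGACGTCA and the steroid receptor palindrome (GNACA, any 3 bases, TGTNC). Sequences run 5′ to 3′ on the gene's strand and end just before the start, and capitals mark matches to any of the motifs.
Slc7a11, chr3:50443614-50443863, minus strand: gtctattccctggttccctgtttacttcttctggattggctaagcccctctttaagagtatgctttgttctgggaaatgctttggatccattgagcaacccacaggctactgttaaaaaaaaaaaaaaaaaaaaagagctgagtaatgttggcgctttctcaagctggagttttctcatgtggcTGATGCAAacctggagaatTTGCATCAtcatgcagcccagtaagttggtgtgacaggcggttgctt
Slc7a1, chr5:148399905-148400154, minus strand: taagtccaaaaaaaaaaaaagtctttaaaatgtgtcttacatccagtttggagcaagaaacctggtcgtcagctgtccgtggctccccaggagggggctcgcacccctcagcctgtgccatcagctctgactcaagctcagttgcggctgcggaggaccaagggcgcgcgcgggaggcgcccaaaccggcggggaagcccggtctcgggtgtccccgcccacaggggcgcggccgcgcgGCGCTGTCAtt

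The Slc7a11 window held the C/EBP-ATF core in both orientations, beginning at -66 and -47 relative to the start. This core is the letter pattern read by ATF4, the transcription factor of the amino acid response. At least 1 copy was present in 3.45% of the 32851 promoter entries of the same length, and 2 or more in 0.0396% of them (13 entries). The Slc7a1 window held 1 antioxidant core, at -11, a pattern present in 10.2% of all entries, and the Slc38a2 window held another at -27. Slc7a1 has a second entry, and none of the 4 motifs was in that window, in those of Slc38a4 or in that of Slc3a2. Bases after the start were not searched, so a window without a motif does not show that the gene lacks it. The cyclic AMP element was in 1.55% of all entries and the steroid receptor palindrome in 0.387%. A match is a run of letters and was not tested as a binding site.

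Among the SLC38 transporters of system A, which take up alanine, serine, glutamine and other small neutral amino acids with sodium, all 3 genes had a lower signal of their brightest probe set after ulipristal. Slc38a1 (SNAT1) had a signal of 500.7 on the ulipristal array and 845 on the vehicle array, 1.69-fold lower. Its dimmer probe set read 121 with ulipristal and 137 with vehicle, 1.14-fold lower. The probe sets therefore shared a direction but not a size, with log2 ratios of -0.76 and -0.18. The brighter is of the kind that can bind several transcripts (s in its ID), and without such probe sets Slc38a1 was below 1.5-fold. Among the 1136 measured genes in the same decile of mean signal, 4.14% had a log2 ratio as low as that of the brighter probe set.

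Slc38a2 (SNAT2), the system A transporter that is known to be induced when cells are short of amino acids, was read by 3 measured probe sets that did not share a direction. The brightest had signals of 2236 with ulipristal and 2616 with vehicle, 1.17-fold lower. The next read 388 with ulipristal and 322 with vehicle, 1.20-fold higher. The dimmest read 37.0 with ulipristal and 46.6 with vehicle, 1.26-fold lower. The log2 ratios thus ran from -0.33 to 0.27. Over the 4955 genes with more than 1 measured probe set, the range of log2 ratios within a gene had a median of 0.43 and a 90th percentile of 0.997. No direction is given for Slc38a2, since its probe sets disagreed by no less than those of other genes commonly do.

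Slc38a4 (SNAT4), a system A member best known from liver and placenta, was dim. Its probe sets read 59.0 and 37.9 with ulipristal, against 78.2 and 41.5 with vehicle, which are 1.32-fold and 1.10-fold lower. Of the measured genes in its decile of signal, 9.86% had a ratio as low as its brightest probe set, and the median of that decile was 0.24. The gene fell under the filter when that was raised to the 75th percentile.

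Slc38a3 (SNAT3), the system N transporter of glutamine, histidine and asparagine and the cumulus cell gene named above, was on the other side of 0. It had a signal of 327 with ulipristal and 239 with vehicle, 1.36-fold higher. Of the measured genes in its decile of signal, 13.7% had a ratio as high. A further probe set of Slc38a3 lay below the filter, with 9.15 on the ulipristal array and 8.81 on the vehicle array. Most markers listed for cumulus cells went the other way, with 4 of 5 measured below 0, where 40% of all measured genes were. Their summed signal was 897 with ulipristal and 1139.7 with vehicle. Their lowest members, Tnfaip6 (90.1 with ulipristal and 322 with vehicle) and Has2 (18.8 with ulipristal and 58.0 with vehicle), are themselves genes of cumulus expansion. The marker above 0, Pfkp (named after its values were seen), was the brightest of them, at 633 with ulipristal and 516 with vehicle. The log2 ratios of its 2 measured probe sets ran from -0.26 to 0.29. Markers listed for mural granulosa cells were above 0 in 9 of 9 cases, as were 6818 of the 11364 measured genes. Their median log2 ratio was 1.18, with a summed signal of 17894 with ulipristal and 13452 with vehicle. In RNA from whole ovaries, fewer cells of a type and less RNA per cell cannot be told apart, and the part of either marker group in the Slc38a3 value was not tested.

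Slc7a1 (CAT1), the main uptake route for arginine, lysine and ornithine in many cells, was lower after ulipristal on each of its probe sets. The brightest had a signal of 829 with ulipristal and 1389 with vehicle, 1.68-fold lower. The other measured probe set read 408 with ulipristal and 532 with vehicle, 1.31-fold lower. The last lay below the filter, at 8.18 on the ulipristal array and 9.51 on the vehicle array. Of the measured genes in the same decile of signal, 4.23% had a log2 ratio as low as the brightest probe set's -0.74. Its measured probe sets differed by less than the median range within genes given above, and Slc7a1 was below 0 under all 10 processing alternatives.

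Slc7a5 (LAT1), the exchanger for leucine and other large neutral amino acids, and its partner Slc3a2 (4F2hc, also CD98), the heavy chain that brings SLC7 light chains to the plasma membrane, differed little. Slc7a5 read 649 with ulipristal and 750.3 with vehicle on its only probe set, 1.16-fold lower. Slc3a2 read 1832 with ulipristal and 2173 with vehicle, also on its only probe set, 1.19-fold lower. These log2 ratios of -0.21 and -0.25 lay well within those of genes of like signal, since 28.9% and 31.2% of the measured genes in their own signal deciles had a ratio as low.

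Slc7a11 (xCT), the cystine/glutamate exchanger that pairs with Slc3a2 and supplies cystine for glutathione, had the lowest ratio of any probe set of the 10 genes, at signals too dim to count as measured. Its brighter probe set read 13.99 with ulipristal and 54.2 with vehicle, 3.88-fold lower, at a mean signal of 27.6 that lies just under the filter of 30.8. The other read 5.96 with ulipristal, below the floor of 7.17 to which low signals were set, and 13.5 with vehicle, at least 1.88-fold lower. The vehicle array was thus the brighter for both. Of the 1755 single-gene probe sets within 0.25 of the brighter one on the log2 scale of mean signal, 3.93% were at least 2-fold lower and 0.513% had a ratio as low as its -1.95. With 50 added to every signal, which damps ratios of dim probe sets, the log2 ratio was -0.70. Detection calls were not used here, and only the vehicle signal of the brighter probe set lay above 30.8.

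**Figure D2:**
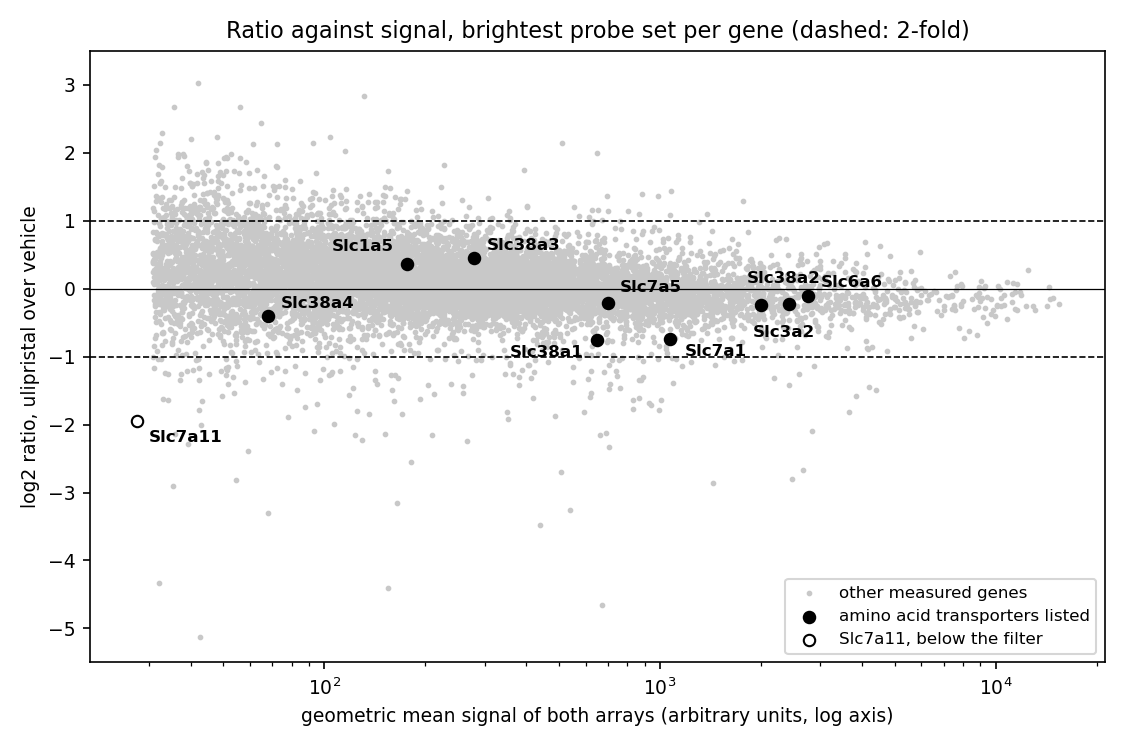
The log2 ratio of ulipristal over vehicle against the geometric mean signal (log axis) for the brightest measured probe set of 11364 genes in grey, the 9 measured transporters in black and the brighter Slc7a11 probe set as an open point; dashed lines mark 2-fold. Slc38a1 and Slc7a1 lie near the lower edge of the cloud at their signal, with log2 ratios of -0.76 and -0.74, and Slc38a3 and Slc1a5 lie above 0.

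Slc1a5 (ASCT2), an exchanger of neutral amino acids that is a main route for glutamine in dividing cells, was read by probe sets that went opposite ways. The brighter had a signal of 200.2 with ulipristal and 155 with vehicle, 1.29-fold higher. The dimmer read 25.6 with ulipristal and 41.6 with vehicle, 1.62-fold lower. The gap between their log2 ratios of 0.37 and -0.70 exceeded 1, as it did in 9.97% of genes with more than 1 measured probe set, so no direction is given for Slc1a5.

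Slc6a6 (TauT), the sodium- and chloride-coupled transporter of taurine and beta-alanine, had a nearly equal signal on both arrays. Its brightest probe set read 2661 with ulipristal and 2857 with vehicle, 1.07-fold lower. The other measured probe set read 668 with ulipristal and 859.7 with vehicle, 1.29-fold lower. A pair of further probe sets was below the filter, 1 of them with 18.9 on the ulipristal array and 3.05 on the vehicle array, and the other below the floor on both. The ratio of the brightest was close to the median of its decile of signal, -0.12.

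**Figure D3:**
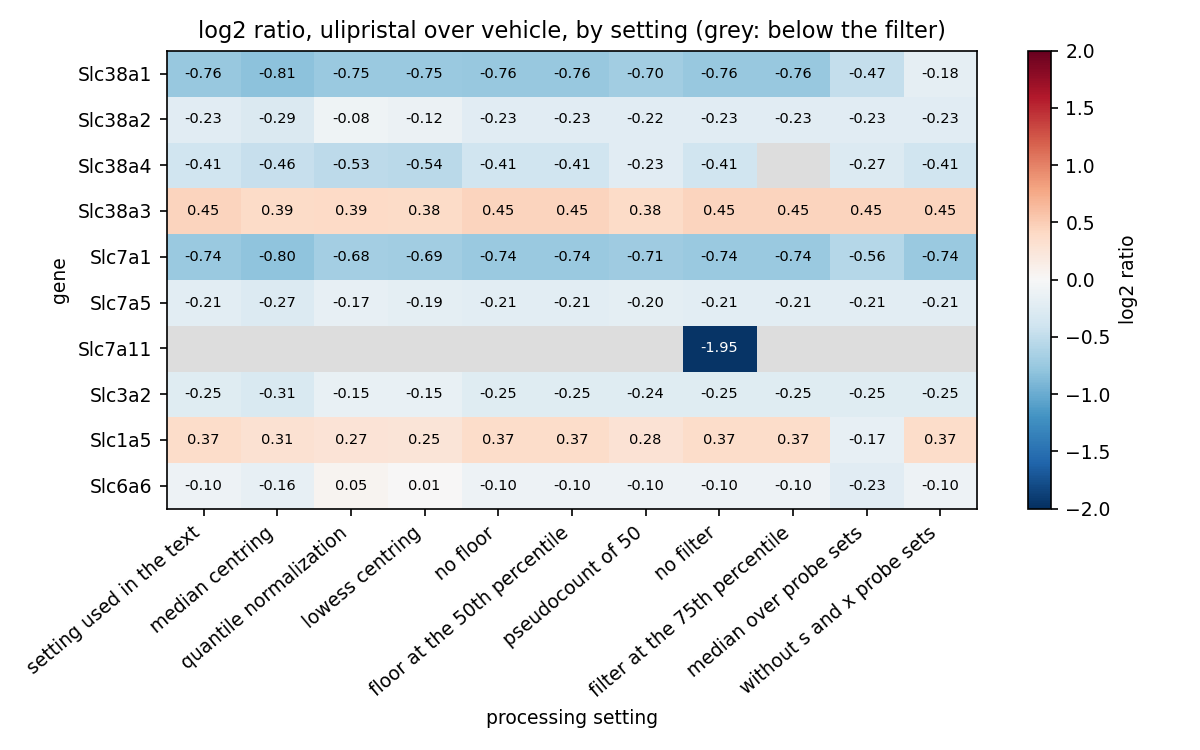
The log2 ratio of ulipristal over vehicle of each of the 10 genes (down the page) under the setting used in the text and 10 alternatives (across), printed in each cell and coloured from blue (lower with ulipristal) to red (higher); grey cells are below the filter. Slc38a1, Slc7a1, Slc7a5, Slc3a2 and Slc38a2 are below 0 in every column and Slc38a3 is above 0 in every column, whereas Slc1a5 and Slc6a6 change sign.

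Other plasma membrane and lysosomal amino acid transporters had a higher median than the listed ones that were measured. Of 40 annotated, 23 were measured. Of these, 3 were 2-fold higher or more and none was 2-fold lower (0 of 23), where 3.34% and 1.56% of all measured genes were so. In all 18 were above 0, as were 6818 of the 11364 measured genes, and the median log2 ratio was 0.30. The 3 were dim, Slc36a2, a proton-coupled transporter of glycine and proline (64.4 with ulipristal and 28.1 with vehicle), Slc1a1, a glutamate and cysteine transporter (56.6 with ulipristal and 24.7 with vehicle), and Slc7a10, a small neutral amino acid exchanger that pairs with Slc3a2 (50.2 with ulipristal and 22.2 with vehicle). Each of the 3 had a vehicle signal below the filter of 30.8, so each counted as measured only through its ulipristal signal. Slc38a7, a lysosomal glutamine exporter, was 1.87-fold higher, with 90.7 on the ulipristal array and 48.4 on the vehicle array. Dim genes had higher ratios in general on these arrays, with a median of 0.24 in the decile of signal that holds Slc38a4 and -0.12 in the decile that holds Slc3a2, and after lowess centring of the ratio against signal the medians were 0.18 for the other transporters and -0.15 for the 9 measured of the 10 genes. The count of 3 was 1 when the floor was raised to the 50th percentile, and it was 0 if 50 was added to signals or with the filter at the 75th percentile, where the median of the other transporters was -0.01.

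The other light chains that share Slc3a2 had ratios on both sides of 0. Slc7a8 (LAT2), which like Slc7a5 carries large neutral amino acids, read 731 with ulipristal and 1261 with vehicle, 1.72-fold lower on its only measured probe set. Slc7a6 and Slc7a7, the y+L exchangers of cationic for neutral amino acids, read 395 and 54.2 with ulipristal, against 362 and 44.1 with vehicle. Slc7a10 was higher, as given above. The heavy chain itself was 1.19-fold lower.

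Genes that act on arginine and its product ornithine were described beside Slc7a1. Of 10 measured, 1 was 2-fold lower or more and 0 were 2-fold higher, where 1.56% and 3.34% of all measured genes were so. That gene was Odc1, ornithine decarboxylase, which opens polyamine synthesis, with a signal of 1479 on the ulipristal array and 3970 on the vehicle array, 2.68-fold lower. The log2 ratios of its 3 probe sets ran from -1.57 to -1.27. Azin1, the antizyme inhibitor that protects ornithine decarboxylase, was 1.29-fold lower, and Asl, argininosuccinate lyase, and Nos3, the endothelial nitric oxide synthase, were 1.57-fold and 1.25-fold higher. The median of the list was 0.04, close to the 0.09 of all measured genes.

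Genes that make or use glutamine, a substrate of Slc38a1, Slc38a2, Slc38a3 and Slc1a5, or the glutamate made from it, held several lower members. Of 11 measured, 1 was 2-fold lower or more and 0 were 2-fold higher, where 1.56% and 3.34% of all measured genes were so. At 1.5-fold 4 were lower and 0 higher, against 4.58% and 12.3% of all measured genes. The gene past 2-fold was Gpt2, the mitochondrial alanine aminotransferase, which read 254 with ulipristal and 929.7 with vehicle, 3.66-fold lower. Its 4 measured probe sets shared a direction but not a size, with log2 ratios from -1.87 to -0.10. That range is wider than the 90th percentile within genes given above, and the lowest ratio came from a probe set with s in its ID. Gfpt2, an enzyme of hexosamine synthesis that uses glutamine and feeds hyaluronan, read 137 with ulipristal and 265 with vehicle, 1.93-fold lower. Glul, glutamine synthetase, read 1905 with ulipristal and 3464 with vehicle, 1.82-fold lower, with both probe sets in that direction. Glud1, glutamate dehydrogenase, read 1018 with ulipristal and 1724 with vehicle, 1.69-fold lower. The median of the list was -0.16, with 5 genes above 0 and 6 below, and 2 genes were past 2-fold under median centring, quantile normalization and lowess centring.

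The amino acid response is the program by which ATF4 induces transporters such as Slc7a11, Slc38a2 and Slc3a2. Of its 28 measured targets and regulators, 2 were past 2-fold, both lower, where 1.56% of all measured genes were 2-fold lower. These were Gpt2 and Atf3, a stress-induced transcription factor, at 29.3 with ulipristal and 70.1 with vehicle. The ulipristal signal of Atf3 lay below the filter of 30.8. With 50 added to every signal, or with the filter at the 75th percentile, 1 gene was past 2-fold. Eif4ebp1, a repressor of translation, was 1.63-fold lower by its brightest probe set, but all 3 of them ran from -0.71 to 0.04. Cth, which makes cysteine from cystathionine, was 1.67-fold higher. At 1.5-fold, 2 of the 28 were higher and 3 lower, where 12.3% and 4.58% of all measured genes were so. In all 20 genes were below 0 and 8 above, with a median log2 ratio of -0.17, where 40% of all measured genes were below 0. Ratios fell with signal on these arrays, and that share was not matched for signal. Atf4 itself (named after its values were seen) was 1.20-fold lower, with 2 probe sets from -0.85 to -0.26. Aminoacyl-tRNA synthetases, which load the amino acids onto tRNA, had 0 of 18 measured genes past 1.5-fold higher or lower (12.3% and 4.58% of all measured genes). Their median was -0.09, and 0.08 without s and x probe sets. Those farthest from 0 were Hars (1.45-fold lower), Wars and Aars (1.41-fold and 1.38-fold higher) and Mars1 (1.34-fold lower).

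Glutathione and antioxidant genes, described beside Slc7a11, had 1 of 16 measured genes past 2-fold, on the higher side (3.34% of all measured genes). Their median was 0.12. The higher gene was Ggt5, a gamma-glutamyl transferase, at 131 with ulipristal and 56.0 with vehicle, though its 3 probe sets ran from -0.27 to 1.23. The count was 0 with 50 added, with the filter at the 75th percentile and with the median over probe sets. Nqo1, a quinone reductase under NRF2, read 62.4 with ulipristal and 32.5 with vehicle, and Oplah, which recycles glutamate from oxoproline, was 1.57-fold higher. Srxn1, a sulfiredoxin under NRF2, was 1.53-fold lower, with 3 probe sets from -0.95 to -0.61. Nqo1 and Srxn1, both known targets of that factor, therefore lay on opposite sides of 0.

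Among genes by which mTORC1 senses amino acids, the route known to link leucine uptake to growth, 0 of 26 measured genes passed 2-fold. At 1.5-fold 4 were higher and 0 lower, where 12.3% and 4.58% of all measured genes were so. The 4 were Depdc5, a subunit of an inhibitory complex (1.90-fold), Tsc2, an inhibitor of mTORC1 (1.74-fold), the arginine sensor Castor1 (1.53-fold) and Akt1s1, an inhibitory mTORC1 subunit (1.51-fold). Depdc5 was dim, with 84.6 on the ulipristal array and 44.6 on the vehicle array, and its 3 probe sets ran from -0.0039 to 0.92. The 2 measured probe sets of Akt1s1 ran from 0.59 to 1.31, with the dimmer of them past 2-fold. The median of the list was 0.12, and -0.0043 with the filter at the 75th percentile. Breakdown enzymes of branched-chain amino acids had 1 of 6 measured genes past 2-fold, on the higher side, against 3.34% of all measured genes. The higher gene was Bcat2, the mitochondrial aminotransferase, at 87.0 with ulipristal and 30.4 with vehicle, followed by Bckdha (1.45-fold higher), Dbt (1.22-fold lower) and Bckdhb (1.19-fold higher). That count was 0 with 50 added and with the filter at the 75th percentile. The vehicle signal of Bcat2 lay just below the filter of 30.8. In taurine synthesis, described beside Slc6a6, all 3 measured genes lay within 1.5-fold, Csad (1.40-fold higher), Ado (1.13-fold lower) and Cdo1 (1.03-fold lower).

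**Figure D4:**
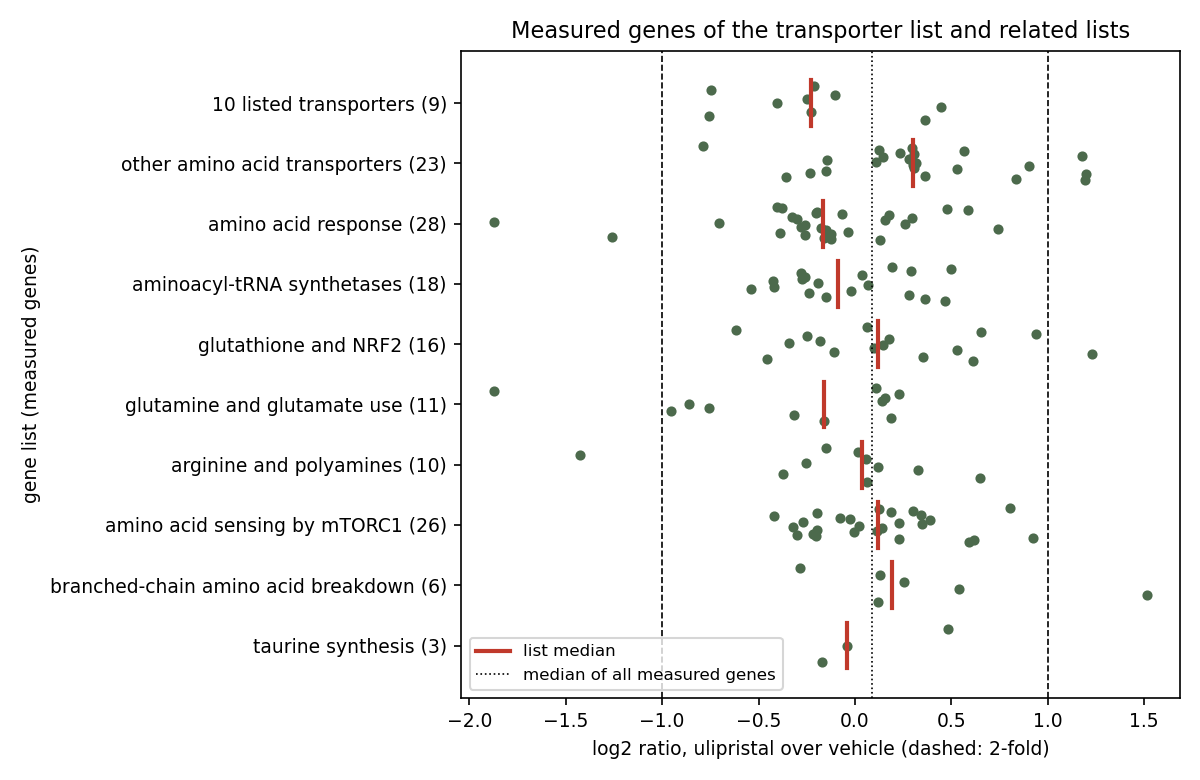
The log2 ratio of ulipristal over vehicle for every measured gene (points) of the 10 listed transporters and of 9 related lists, with the number measured in brackets, the list median in red, the median of all measured genes (0.09) dotted and 2-fold dashed. The points of the listed transporters all lie between the dashed lines, and those past the lower line are Gpt2, in 2 lists, Atf3 and Odc1.

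The arrays also differed in ways that touch these values. Markers of oviduct and of ovarian surface epithelium were higher after ulipristal, with 6 of 6 and 7 of 7 measured genes above 0. Of all 11364 measured genes, 6818 were above 0. The summed signals of these markers were 6122 and 1950.3 with ulipristal, against 3825 and 1257 with vehicle. Most of the oviduct sum came from Ovgp1 (named after its values were seen), at 5642 with ulipristal and 3641 with vehicle. Foxj1 of motile cilia was 3.93-fold higher but dim, at 75.1 with ulipristal and 19.1 with vehicle, the latter below the filter of 30.8. Epcam was 2.50-fold higher, at 268 with ulipristal and 107 with vehicle. Neutrophil markers went both ways, with S100a9 and S100a8 3.69-fold and 2.75-fold lower and the only other measured gene, Ltf (named after its values were seen), 2.72-fold higher, and summed signals of 289 with ulipristal and 416 with vehicle. Oocyte markers, which with those of granulosa cells bear out the labelled tissue, had 0 of 10 measured genes past 2-fold and a median of 0.14. Among control features, the medians on the ulipristal array were 1.48-fold lower for poly-A spikes, 2.41-fold lower for 18S ribosomal RNA, 1.03-fold higher for Actb and 1.38-fold higher for Gapdh. The ratio of 3′ to 5′ features, a sign of RNA integrity and labelling, was 1.87 with ulipristal and 2.40 with vehicle for Actb, and 0.866 with ulipristal and 1.20 with vehicle for Gapdh. The part of any of these in the transporter values was not tested.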

How the data were processed

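The authors deposited MAS5 probe set intensities on a linear scale, and Affymetrix Expression Console version 1 was named beside MAS5, per the submitters' processing notes. Means without the lowest and highest 2% of values were 150.001 on both arrays, so a global scaling is likely, which would hide any shift common to most genes. For the probes, no genome build is stated in the labels used.

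Of 45101 probe sets, 64 were controls and 34945 named 1 gene, of which 34741 were found in RefSeq by gene identifier. Signals under 7.17, the 25th percentile of both arrays, were set to that floor before log2 was taken. The rest is described with the results. The arrays' number, 1 per group, limits the precision. The steps were tested on simulated data. Members and lists were chosen with earlier results of these data known. The text names all members, up to 4 genes per related list and up to 2 per marker list with the largest absolute ratios, and the light chains that pair with Slc3a2. Pfkp, Atf4, Ltf and Ovgp1 were added after their values were seen. Marker lists were read for 11 cell types; those not given in the results had medians of 0.42 (theca and interstitial), 0.42 (endothelial), 0.92 (adipocytes), 0.18 (macrophages) and 0.07 (red cells). Calculations used pandas 2.3.3 and numpy 2.4.6 under Python 3.11.15, lowess came from statsmodels 0.14.6, and plots were drawn with matplotlib 3.10.9.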

Additional observations from a re-analysis of the deposited data

How the results depend on the processing

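The alternatives changed the scaling (quantile normalization, median or lowess centring), the floor (none, the 50th percentile, or 50 added to every signal instead), the filter (none or the 75th percentile) and the probe sets (the median of those measured, or none with s or x in the ID). The number of members at least 2-fold lower was 0 in the text and 1, Slc7a11, with no filter. The number at least 1.5-fold lower was 2 in the text, 0 with the median over probe sets, where Slc7a1 and Slc38a1 had ratios of -0.56 and -0.47, and 1 without s and x probe sets. The counts of higher members and the median kept within the limits set for a change. Slc1a5 was below 0 only with the median over probe sets (-0.17), and Slc6a6 was above 0 with quantile normalization (0.05) and lowess centring (0.01). The median of the neutrophil markers was -1.46 in the text and 0.12 with no filter. Of all genes past 2-fold, 68.2% were higher in the text, 57.3% with quantile normalization, 56.2% with lowess centring, 36.5% with the filter at the 75th percentile and 35.8% with 50 added. No paired analysis was possible because each group holds 1 array. Dim signals limit Slc7a11 and Slc38a4 most.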
